A study of Mus musculus with 6 samples.

Results

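Among the genes measured in cultured mouse myoblasts, 10 encode elastic fibre components and latent TGFb binding proteins, and they are described here: Ltbp1, Ltbp2, Ltbp3, Ltbp4, Fbn1, Fbn2, Eln, Mfap5, Emilin1 and Fbln5. They were chosen by name, as all non-control probes that the arrays assign to these symbols, which gave 15 probes. Of these, 12 probes of 8 genes gave a signal well above background on 3 or more of the 6 arrays and were tested, among 21999 genes tested in all. Eln and Mfap5 did not reach that level. The study set primary myoblasts treated with TGFb for 4 days against untreated primary myoblasts, with 3 arrays of each. All cells came from skeletal muscle of male C57BL/6 mice aged 3 months, were sorted by flow cytometry and were grown in DMEM with fetal bovine serum, which both groups share. Per the series' design text the 3 samples of a group are independent experiments. However, the scanner file names give untreated replicates 1 and 2 the same number. These 2 arrays also had the highest correlation of any pair (r across tested genes of 0.996). If they shared a culture, the p-values below are too small.

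Elastic fibres consist of an elastin core laid down on a scaffold of microfibrils, which are polymers of fibrillins. Latent TGFb binding proteins (LTBPs) are relatives of the fibrillins that attach to microfibrils, and several of them tether TGFb in its inactive, latent form until integrins or proteases release it. In skeletal muscle the family has a known role: variants of Ltbp4 modify the severity of muscular dystrophy in mice.

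The stretches before the starts of Ltbp2 and Fbln5 are shown because these were the members that were higher in TGFb-treated cells by test. Ltbp2 passed in both limma fits described below, and Fbln5 only in the one that holds the scan day. Each stretch is the 250 bases before an annotated start in RefSeq (GRCm38.p6), on the gene's own strand, 5′ to 3′. Capitals mark CAGAC, the short element to which SMAD proteins of the TGFb pathway are known to bind, or its reverse complement GTCTG. The Ltbp2 stretch lies at chr12:84876492-84876741 on the minus strand. The Fbln5 stretches lie at chr12:101819120-101819369 and chr12:101818485-101818734, also on the minus strand.
Ltbp2: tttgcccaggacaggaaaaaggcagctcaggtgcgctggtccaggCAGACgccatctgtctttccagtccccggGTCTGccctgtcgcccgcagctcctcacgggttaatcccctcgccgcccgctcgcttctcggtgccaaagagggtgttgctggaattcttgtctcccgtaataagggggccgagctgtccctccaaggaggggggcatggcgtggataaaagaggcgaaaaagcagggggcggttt
Fbln5, upstream start: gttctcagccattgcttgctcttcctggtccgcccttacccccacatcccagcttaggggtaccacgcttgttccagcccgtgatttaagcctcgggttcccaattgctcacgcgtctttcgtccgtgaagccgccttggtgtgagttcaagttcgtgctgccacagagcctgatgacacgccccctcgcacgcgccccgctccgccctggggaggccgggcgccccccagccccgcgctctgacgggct
Fbln5, downstream start: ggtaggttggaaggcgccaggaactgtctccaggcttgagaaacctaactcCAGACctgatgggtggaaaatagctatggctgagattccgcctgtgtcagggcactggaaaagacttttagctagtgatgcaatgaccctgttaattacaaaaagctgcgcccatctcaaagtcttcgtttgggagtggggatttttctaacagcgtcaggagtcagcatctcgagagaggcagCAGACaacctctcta
CAGAC on either strand occurred 2 times before the Ltbp2 start, 0 times before the upstream Fbln5 start and 2 times before the downstream one. It occurred in 42.2% of all 32851 promoter stretches of that length, so its presence is common. The GC-rich motif GGGCGG, on either strand, was present before the Ltbp2 start and the upstream Fbln5 start, and in 32.7% of all stretches. Neither TATAAA (12.4% of all stretches) nor TGANTCA (6.75%) was found in the 3 stretches. These matches describe the sequences only.

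Probe sequences are shown for Ltbp4 because its 3 probes gave different readings. All probe coordinates are those of mm9, as the scanner files give them. The Ltbp4 probes lie on the minus strand of chromosome 7. The probe nearest the 3′ end of the gene lies at chr7:28090175-28090234, an inner probe at chr7:28091095-28091154, and a probe designed on a melanocyte cDNA clone at chr7:28096601-28096660. The first 30 of 60 bases of each are shown, with no part in capitals because no motif is marked.
Ltbp4, 3′ end probe: cctgggcctgtcctgggtcccctgacacat
Ltbp4, inner probe: ttccagaaggcttcacctgcgattgtttcg
Ltbp4, clone probe: gcttttacacacgtgcccctattcccaaaa
The Ltbp2 probe, which carries the largest difference among the members tested, lies at chr12:86124167-86124226 in mm9 on the minus strand. Its last 30 bases are shown because they hold AATAAA, the letters of the common polyadenylation signal, in capitals.
Ltbp2, end of probe: ttcaggagcatgggggAATAAAatgttcat

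All levels below are log2 intensities relative to the array's own 75th percentile, so that 0 means as bright as that percentile and 1 unit is a 2-fold step. Levels of different probes are not comparable with each other, only the same probe across arrays. Scanning took 2 days: day 1 held TGFb replicate 1 with untreated replicates 1 and 2, and day 2 held TGFb replicates 2 and 3 with untreated replicate 3. In the scanner values used here, the first principal component of all genes (72.4% of the variance) separated the days, and the second (16.3%) separated the groups. In the authors' deposited table of normalized values, the first component (55.4%) separated the groups and the third (12.6%) the days. Given the scan days, differences were taken from 2 limma fits, one with treatment alone and one that also holds the scan day (called day-adjusted here). Both used Benjamini-Hochberg adjustment over all genes tested. For some probes and list genes the difference of only 1 fit is given. Where no fit is named, the difference is from the fit with treatment alone, that is, without a batch term. Without a batch term, 1 of 8 tested members was higher and 0 lower, against a background of 0.686% of all genes called higher and 0.686% called lower. At an unadjusted p under 0.05, 2 were higher (Ltbp2, Fbln5) and 1 was lower (Fbn2), against 5.7% and 5.79% of all genes. In the day-adjusted fit, 2 were higher and 1 was lower, against 4.59% and 5.59% of all genes. The median log2 difference of the 8 was 0.39, and 0.05 over all genes tested.

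**Figure D1:**
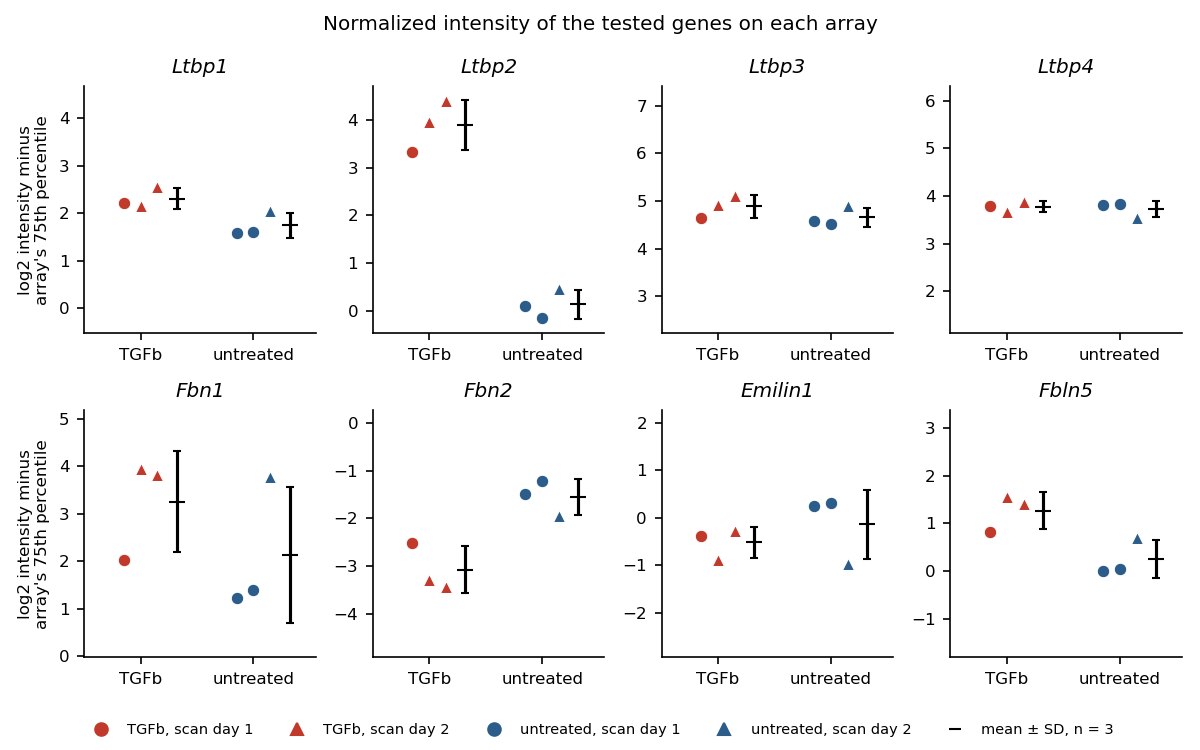
Level of each tested member on every array, as log2 intensity minus the array's 75th percentile (vertical axis), for TGFb-treated cells (left) and untreated cells (right). Circles are arrays of scan day 1, triangles those of scan day 2, and bars show the mean ± SD of 3 arrays. The Ltbp2 groups lie far apart, and the 3 triangles of Fbn1 lie above its circles in both groups.

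Ltbp2 was the member with the largest difference. Its protein binds fibrillin microfibrils but, unlike several of its relatives, is known not to bind latent TGFb. The level was 3.34, 3.96 and 4.40 in TGFb replicates 1, 2 and 3, against 0.09, -0.15 and 0.46 in untreated replicates 1, 2 and 3. Every treated array lay above every untreated one, as was so for 8.32% of all genes. The mean was 3.90 ± 0.53 in TGFb-treated cells and 0.13 ± 0.31 in untreated cells (SD, n = 3 each). The log2 difference was 3.77 ± 0.37 (SE), a 13.6-fold rise, with a limma adjusted p of 0.0152. The day-adjusted difference was 3.54 ± 0.20, or 11.7-fold, with a limma adjusted p of 0.00189. Within day 1 the difference was 3.37 and within day 2 it was 3.72. On the 2 slides that held an array of each group it was 3.49 and 3.50. The call without a batch term was lost without TGFb replicate 2 (limma adjusted p = 0.117) or 3 (0.0797), and without untreated replicate 1 (0.139) or 2 (0.138). It was also lost when untreated replicates 1 and 2 were averaged as 1 sample (limma adjusted p = 0.137). In the day-adjusted fit, Ltbp2 passed without any 1 of the arrays (limma adjusted p from 0.00432 to 0.0336), and with untreated replicates 1 and 2 averaged (0.0193).

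Ltbp1, which tethers latent TGFb to the matrix, had levels of 2.21, 2.15 and 2.56 in TGFb-treated cells, against 1.58, 1.60 and 2.04 in untreated cells. The groups did not overlap, as was so for 8.32% of all genes in this direction, but the lowest treated array lay only just above the highest untreated one. The log2 difference was 0.56 ± 0.28 (SE), with a limma adjusted p of 0.542. Day-adjusted, it was 0.46 ± 0.18 (limma adjusted p = 0.181), 0.61 within day 1 and 0.31 within day 2. Ltbp1 thus passed in neither fit.

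Ltbp3, which also binds latent TGFb and is known from skeletal and dental growth, was read by a pair of probes. The brighter one (chr19:5758289-5758346) read 4.63, 4.91 and 5.11 in TGFb-treated cells, against 4.57, 4.52 and 4.89 in untreated cells. The groups overlapped, with a log2 difference of 0.23 ± 0.27 (SE; limma adjusted p = 0.787), and 0.11 ± 0.14 in the day-adjusted fit (0.677). The second probe, 207 bases away, read 3.57, 3.04 and 3.43 in TGFb-treated cells, against 3.69, 3.48 and 2.98 in untreated cells, a log2 difference of -0.04 ± 0.32. Neither probe passed the test.

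Ltbp4, the modifier of muscular dystrophy, gave different readings by probe. At the 3′ end its level was 3.79, 3.66 and 3.88 in TGFb-treated cells, against 3.82, 3.84 and 3.54 in untreated cells. These groups overlapped, with a log2 difference of 0.05 ± 0.25 (SE; limma adjusted p = 0.951). The sign of that difference turned under 4 other scalings, which gave -0.085 to -0.021. The day-adjusted difference of the 3′ end probe was 0.10 ± 0.15 (limma adjusted p = 0.733). The inner probe, 920 bases upstream, read 1.80, 1.12 and 1.11 in TGFb-treated cells, against 1.91, 1.75 and 1.18 in untreated cells. Its log2 difference was -0.26 ± 0.35, and -0.04 ± 0.14 when day-adjusted.

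The clone probe, 6426 bases upstream of the 3′ end probe, read -3.16, -3.38 and -3.52 in TGFb-treated cells, against -4.61, -4.34 and -4.91 in untreated cells. It was dim but well above background on all 6 arrays. The groups did not overlap, as was so for 8.32% of all genes in this direction. That share counts 1 probe per gene, and the share over all probes was not computed. When each probe was tested on its own, its log2 difference was 1.27 ± 0.28 (SE; limma adjusted p = 0.144 over 30200 probes). Day-adjusted, it was higher by 1.39 ± 0.16 (limma adjusted p = 0.0107), where 3.74% of probes were called higher. The difference was 1.32 within day 1 and 1.46 within day 2. With untreated replicates 1 and 2 averaged, its day-adjusted limma adjusted p was 0.0629. The log2 ratio of the clone probe to the 3′ end probe within an array was -6.95, -7.04 and -7.40 in TGFb-treated cells, against -8.42, -8.18 and -8.45 in untreated cells. These ratios did not overlap between the groups, and their difference was not tested. Which transcript the clone probe detects was not analysed here.

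**Figure D2:**
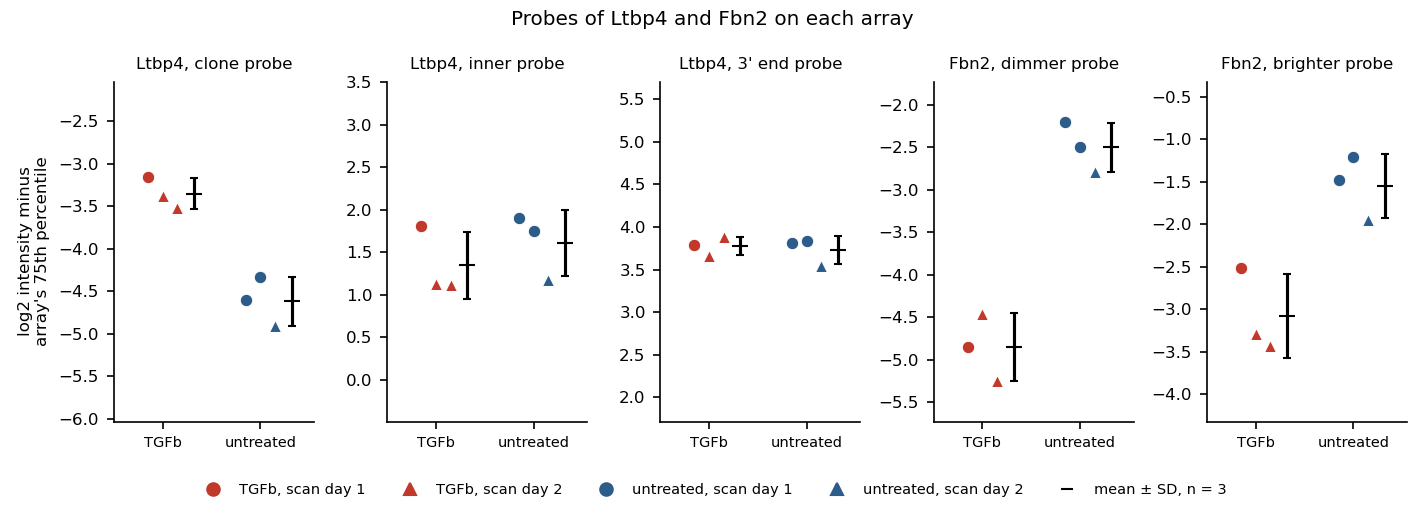
Level on every array (vertical axis, log2 intensity minus the array's 75th percentile) of the 3 Ltbp4 probes and the 2 Fbn2 probes, TGFb-treated cells left and untreated cells right, circles for scan day 1 and triangles for scan day 2. Bars show the mean ± SD of 3 arrays. The Ltbp4 clone probe separates the groups while the other Ltbp4 probes overlap, and both Fbn2 probes are lower in TGFb-treated cells.

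Of the fibrillins, Fbn1 encodes the main microfibril protein of adult tissue, mutated in human Marfan syndrome. Its probe (chr2:125126727-125126786) read 2.03, 3.94 and 3.81 in TGFb-treated cells, against 1.22, 1.39 and 3.77 in untreated cells. The 3 arrays of scan day 2 were the high ones, whatever the treatment. The log2 difference was 1.13 ± 0.86 (SE; limma adjusted p = 0.711). In the day-adjusted fit it was 0.41 ± 0.20 (limma adjusted p = 0.251). Day 1 alone gave 0.72 and day 2 alone 0.10. Fbn1 thus passed in neither fit.

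Fbn2 encodes the fibrillin made mainly during development. Its brighter probe, which represents the gene, read -2.51, -3.29 and -3.43 in TGFb-treated cells, against -1.48, -1.21 and -1.95 in untreated cells. Every treated array lay below every untreated one, as was so for 9.47% of all genes. The log2 difference was -1.53 ± 0.37 (SE), with a limma adjusted p of 0.156. It was lower by test in the day-adjusted fit, at -1.29 ± 0.16 (limma adjusted p = 0.0108). The difference was -1.17 within day 1 and -1.41 within day 2. The day-adjusted call was lost without TGFb replicate 1 (limma adjusted p = 0.0609), without untreated replicate 2 (0.0722) or 3 (0.114), and with untreated replicates 1 and 2 averaged (0.0569).

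The dimmer Fbn2 probe, 3532 bases away, read -4.85, -4.46 and -5.25 in TGFb-treated cells, against -2.21, -2.50 and -2.79 in untreated cells. It was well above background on 2 of 3 treated arrays and on 3 of 3 untreated arrays. Tested on its own, its log2 difference was -2.35 ± 0.33 (SE; limma adjusted p = 0.0400), where 0.51% of probes were called lower. Its day-adjusted difference was -2.28 ± 0.28 (limma adjusted p = 0.0118), where 4.65% were called lower. With untreated replicates 1 and 2 averaged, the day-adjusted call of this probe was lost as well (limma adjusted p = 0.0588).

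Of the proteins that join the elastin core to the microfibril, Fbln5 (fibulin 5) is required for elastic fibre assembly in mice. Its probe at chr12:102988153-102988212 read 0.83, 1.57 and 1.41 in TGFb-treated cells, against 0.00, 0.05 and 0.70 in untreated cells. The groups did not overlap, as was so for 8.32% of all genes in this direction. Within each scan day the treated arrays were the higher ones. The log2 difference was 1.01 ± 0.34 (SE; limma adjusted p = 0.320). In the day-adjusted fit Fbln5 rose by 0.79 ± 0.14 (limma adjusted p = 0.0268). Day 1 alone gave 0.80 and day 2 alone 0.78. The call held without TGFb replicate 2 (limma adjusted p = 0.0493) or 3 (0.0234). It was lost without TGFb replicate 1 (0.120) or without untreated replicate 1 (0.146), 2 (0.146) or 3 (0.166). It was also lost with untreated replicates 1 and 2 averaged (limma adjusted p = 0.143). A second Fbln5 probe, 3275 bases away, was well above background only on TGFb replicate 3 and was not tested.

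Emilin1, a glycoprotein at the interface of elastin and microfibrils that also restrains the processing of the TGFb precursor, read -0.39, -0.88 and -0.27 in TGFb-treated cells, against 0.25, 0.31 and -0.98 in untreated cells. The groups overlapped. The log2 difference was -0.37 ± 0.44 (SE; limma adjusted p = 0.783). It was -0.67 within day 1 and 0.41 within day 2, so that its sign differed between the scan days. The day-adjusted difference was -0.13 ± 0.31 (limma adjusted p = 0.828).

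Eln, which encodes elastin itself, was well above background only on TGFb replicate 1 and untreated replicate 2. Its probe read -5.23, -7.46 and -7.46 in TGFb-treated cells, against -5.73, -5.58 and -7.15 in untreated cells. Mfap5, a small glycoprotein that binds fibrillins, was well above background on no array. It read -7.60, -5.33 and -6.22 in TGFb-treated cells, against -7.45, -7.85 and -6.59 in untreated cells. The lowest signal that counted as well above background lay between -5.96 and -5.23 over the arrays, so no difference is given for either gene. As these are bulk samples, fewer cells with a transcript and less of it per cell cannot be told apart, for any gene named here.

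**Figure D3:**
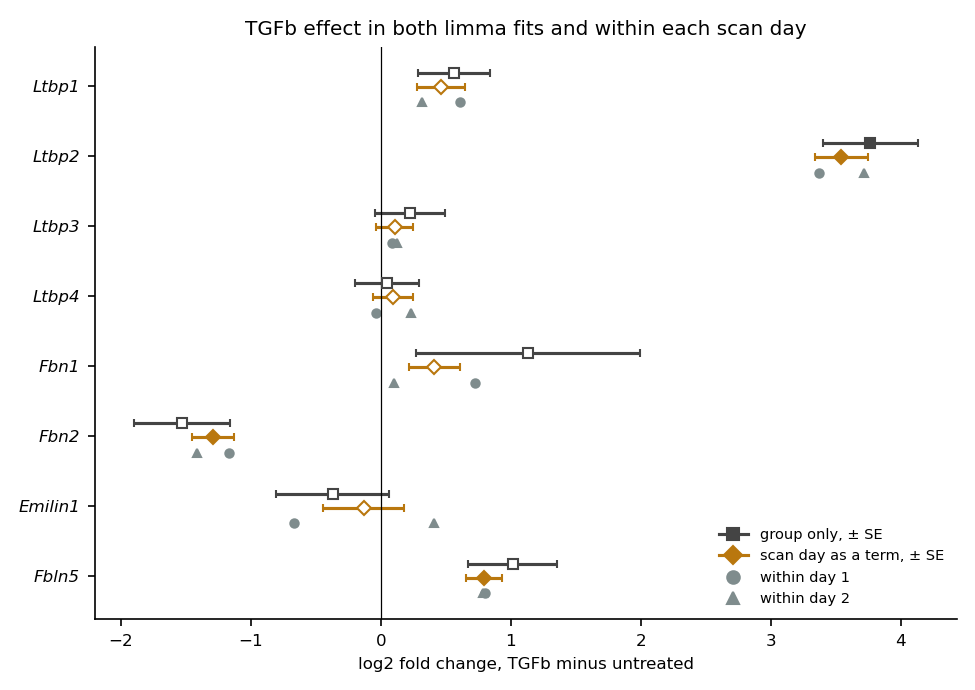
Log2 difference of each tested member, TGFb minus untreated (horizontal axis), from the fit with treatment alone (squares) and the day-adjusted fit (diamonds), with the difference within day 1 (circles) and within day 2 (triangles). Bars are SEs, filled squares and diamonds have a limma adjusted p under 0.05, and the line at 0 marks no difference. Ltbp2 is filled in both fits, Fbn2 and Fbln5 in the day-adjusted fit.

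Among the members tested, the sign of the difference within day 1 equalled that within day 2 for 6 of 8, against 67.8% of all genes. Ltbp4, at its 3′ end probe, and Emilin1 were the exceptions.

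Genes whose profile across the 6 arrays was most like that of a member are named here, with clone, predicted and accession-like names left out. Likeness was the root mean square difference between profiles centred on their own mean, over 18320 genes well above background on all arrays. For Ltbp2 the nearest were Alcam (0.219), a cell adhesion molecule, Itga11 (0.239), a collagen-binding integrin subunit, and Col8a2 (0.257), a short-chain collagen. For Fbn2 they were Ecscr (0.119), Dhx58 (0.130) and Amigo1 (0.130). For Fbln5 they were Arhgap21 (0.0524), Tmem14a (0.0669) and Ss18 (0.0676). The likeness is a description over 6 arrays.

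A list of 30 further elastic fibre genes held the enzymes, microfibril proteins and regulators that work on the same structures. Of these, 27 were tested. Without a batch term, 5 were higher and 0 lower by limma, where 0.686% of all genes passed in each direction. At an unadjusted p under 0.05 the counts were 11 and 4, where 5.7% and 5.79% of all genes passed. In the day-adjusted fit, 10 were higher and 3 lower, where 4.59% and 5.59% of all genes passed. The median log2 difference was 0.53 without a batch term and 0.69 day-adjusted, against 0.05 and 0.04 over all genes. Without a batch term, 0 of these genes passed without TGFb replicate 2 or 3 or untreated replicate 1 or 2, and 0 with untreated replicates 1 and 2 averaged, while 4 to 14 passed in the day-adjusted fits without 1 array.

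Of the crosslinking enzymes, Lox, which crosslinks elastin and collagen, read 2.01, 2.61 and 2.62 in TGFb-treated cells, against -1.25, -1.11 and -0.09 in untreated cells. Its log2 difference was 3.23 ± 0.41 (SE; limma adjusted p = 0.0252). Loxl2 rose by 1.47 ± 0.16 in the day-adjusted fit (limma adjusted p = 0.00750), and Loxl3, named after its values were seen, by 1.05 ± 0.14 (0.0138). Loxl1, the relative most tied to elastin, also named after its values were seen, differed by 0.30 ± 0.24 without a batch term, which did not pass (limma adjusted p = 0.723). Pxdn, a peroxidase that crosslinks matrix collagen, rose by 1.61 ± 0.17 in the day-adjusted fit (limma adjusted p = 0.00650). Without a batch term Loxl2, Loxl3 and Pxdn did not pass (limma adjusted p = 0.0617, 0.226 and 0.226).

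Of the ADAMTS family, which shapes microfibrils, Adamts6 rose by 2.72 ± 0.24 (SE; limma adjusted p = 0.0152) and Adamtsl3 by 2.99 ± 0.29 (0.0152) without a batch term. Adamts6 read -2.11, -2.12 and -2.14 in TGFb-treated cells, against -4.64, -4.86 and -5.02 in untreated cells. The fibulins differed in direction. Fbln2, which binds elastin and fibrillin, rose by 2.59 ± 0.28 (limma adjusted p = 0.0191), while Fbln7 fell by 1.28 on the log2 scale in the day-adjusted fit (0.00743). Efemp2 (fibulin 4), named after its values were seen, rose by 0.88 ± 0.15 when day-adjusted (limma adjusted p = 0.0251). Without a batch term neither Fbln7 nor Efemp2 passed (limma adjusted p = 0.432 and 0.538). Efemp1 (fibulin 3), also named after its values were seen, was well above background on none of the treated arrays and on all 3 untreated arrays. It was at least 1.96-fold lower in TGFb-treated cells (limma adjusted p = 0.0586, day-adjusted 0.0132). That bound sets the untreated mean over, per treated array, the higher of the probe's own signal and the lowest signal well above background.

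Of the microfibril-associated proteins, Mfap4 rose by 1.78 ± 0.27 (SE; limma adjusted p = 0.0419), and Mfap2, named after its values were seen, differed by 0.75 ± 0.27 (0.347). Fn1, the matrix scaffold on which fibrillins assemble, was named after its values were seen. It rose by 1.42 ± 0.16 in the day-adjusted fit (limma adjusted p = 0.00777). Dcn, a small proteoglycan that binds TGFb, named likewise, was lower by test in the day-adjusted fit, at -2.57 ± 0.37 (0.0163), and was well above background on 2 of 3 treated arrays. Without a batch term neither Fn1 nor Dcn passed (limma adjusted p = 0.236 and 0.124). Dcn also stands on the list of fibroblast markers. Of that list Thy1 was lower too, at -1.55 day-adjusted (limma adjusted p = 0.00497, without a batch term 0.0599). The other 6 tested markers of that list did not pass. Day-adjusted, Pdgfrb stood at 0.92, Cd34 at 0.57, Tcf21 at 0.47, Pi16 at 0.24, Pdgfra at -0.32 and Ly6a at -0.69. The day-adjusted median of all 8 was -0.04.

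**Figure D4:**
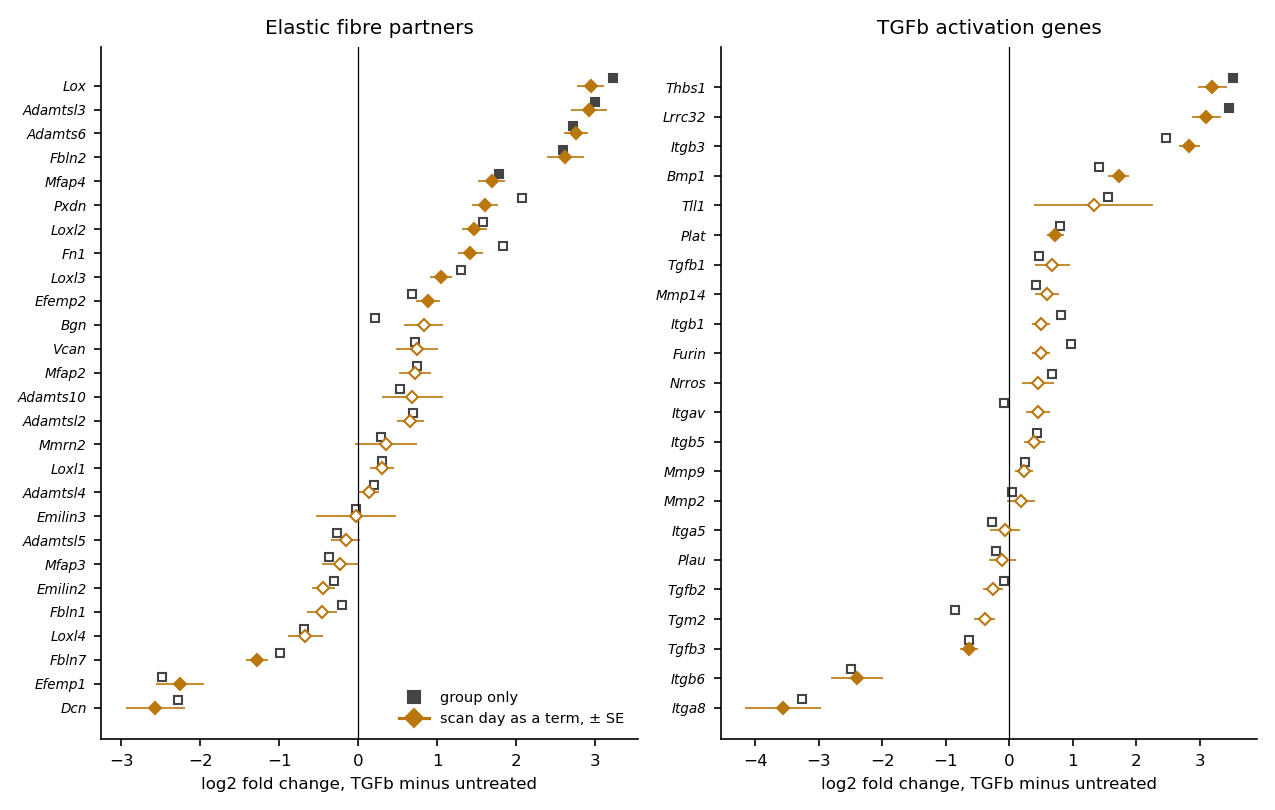
Log2 difference, TGFb minus untreated, of the tested genes of the lists of elastic fibre partners and TGFb activation genes (horizontal axis), from the fit with treatment alone (squares) and the day-adjusted fit (diamonds, with SE). Filled symbols have a limma adjusted p under 0.05. Lox, Adamtsl3, Adamts6, Fbln2 and Mfap4 are filled in both fits on the left, and Thbs1 and Lrrc32 on the right. For Efemp1, Emilin3, Dcn and Itga8 the probe was not well above background on every treated array.

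Of 23 genes that take latent TGFb to its active form or make it, 22 were tested. Without a batch term 2 were higher and 0 lower by limma, where 0.686% of all genes passed in each direction. At an unadjusted p under 0.05 the counts were 5 and 3 (5.7% and 5.79% of all genes). In the day-adjusted fit 5 were higher and 3 lower (4.59% and 5.59% of all genes). Without a batch term, leaving out any 1 array other than untreated replicate 3 left 0 calls, and leaving that one out left 1. Day-adjusted fits without 1 array made 2 to 8 calls. The median log2 difference was 0.43 without a batch term and 0.45 day-adjusted, against 0.05 and 0.04 over all genes. Thbs1, a matricellular activator of latent TGFb, rose by 3.51 ± 0.46 (SE; limma adjusted p = 0.0282). It read 4.80, 5.52 and 5.24 in TGFb-treated cells, against 1.18, 1.27 and 2.57 in untreated cells. Lrrc32, the cell-surface protein that holds latent TGFb in place of an LTBP, rose by 3.46 ± 0.50 (limma adjusted p = 0.0373). It read -0.63, 0.28 and 0.91 in TGFb-treated cells, against -3.64, -3.54 and -2.65 in untreated cells. Of the integrin subunits that release TGFb, Itgb3 rose by 2.83 ± 0.16 in the day-adjusted fit (limma adjusted p = 0.00196), and Itgb6 was lower at -2.40 ± 0.41 (0.0264). Day-adjusted, Itga8 was lower at -3.56 ± 0.60 (limma adjusted p = 0.0246), with only 1 of 3 treated arrays well above background. The size of that difference rests partly on signals at background. Bmp1, a protease that cleaves LTBPs, rose by 1.72 ± 0.16 in the day-adjusted fit (limma adjusted p = 0.00511), and Plat, the plasminogen activator, by 0.72 ± 0.13 (0.0300). Without a batch term Itgb3, Itgb6, Itga8, Bmp1 and Plat did not pass (limma adjusted p = 0.0909, 0.0621, 0.0957, 0.252 and 0.261). Of the ligands, Tgfb3 was lower by test in the day-adjusted fit, at -0.64 ± 0.14 (limma adjusted p = 0.0484). Tgfb3 did not pass without a batch term (limma adjusted p = 0.364). Tgfb1 differed by 0.47 ± 0.39 and Tgfb2 by -0.08 ± 0.31 without a batch term, and neither passed in either fit. Both were named after their values were seen.

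A list drawn up for elastin breakdown held 13 genes, among them enzymes that are not elastases, such as Ctsa and Neu1. Of the list, 9 genes were tested and 0 passed in either limma fit. At an unadjusted p under 0.05, 1 passed without a batch term, where 11.5% of all genes did, and 4 day-adjusted, where 27.2% did. The median log2 difference was 0.41 without a batch term, against 0.05 over all genes. Ctsk, an elastin-degrading cathepsin, differed by 1.14 ± 0.45 without a batch term (limma adjusted p = 0.418) and Mmp14, a membrane protease, by 0.41 ± 0.33 (0.723). Without a batch term, the protective protein Ctsa differed by 1.03 ± 0.72, Ctsl by 0.54 ± 0.28, Mmp9 by 0.24 ± 0.23, Neu1 by 0.12 ± 0.24 and Mmp2 by 0.04 ± 0.32. Elane, neutrophil elastase, had no value on TGFb replicate 2 and untreated replicate 3. It read 0.13 and 5.58 in TGFb replicates 1 and 3, against -0.64 and -0.63 in untreated replicates 1 and 2. Its log2 difference was 3.49 ± 1.93 without a batch term (limma adjusted p = 0.622). The day-adjusted difference of Elane, 0.77, rests on day 1 alone, with TGFb replicate 1 against untreated replicates 1 and 2. Mmp7, Mmp12, Ctss and Ctsv were not tested, and only 12 of the 13 genes had a probe on the arrays.

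The treatment showed in genes known to respond to TGFb. Ccn2 rose by 3.06 ± 0.24 (SE; limma adjusted p = 0.0113). Pmepa1, Smad7 and Skil rose by 2.33, 1.60 and 1.20 in the day-adjusted fit (limma adjusted p = 0.00277, 0.0423 and 0.0119). Without a batch term none of them passed (limma adjusted p = 0.106, 0.184 and 0.467). Tgfbi passed in neither fit, with a day-adjusted difference of 0.32 (limma adjusted p = 0.205). The myoblast genes Pax7, Myod1, Des, Cdh15, Itga7, Vcam1 and Ncam1 gave clear signals on all 6 arrays, and Myf5 was not tested. Day-adjusted, Des was lower (-1.28, limma adjusted p = 0.00998) and Ncam1 higher (1.28, 0.0107). Without a batch term neither Des nor Ncam1 passed (limma adjusted p = 0.139 and 0.232). Summed over its list, in multiples of the array's 75th percentile, the myoblast level spanned 252 to 514 in TGFb-treated cells and 299 to 516 in untreated cells. The fibroblast list, of which 8 of 12 genes were tested, spanned 5.57 to 9.52 in TGFb-treated cells and 3.53 to 7.04 in untreated cells. Its markers Lum, Dpt, Dpp4 and Col15a1 did not reach the level for testing. The smooth muscle list spanned 466 to 843 in TGFb-treated cells and 361 to 619 in untreated cells. In the same order, the tenocyte list spanned 53.8 to 65.0 and 45.6 to 50.9, and the leukocyte list 16.1 to 116 and 16.1 to 66.3. The leukocyte sums rest mostly on Itgam. It read 3.96, 6.65 and 6.85 in TGFb replicates 1, 2 and 3, against 3.95, 3.97 and 6.03 in untreated replicates 1, 2 and 3. The high arrays of Itgam were those of scan day 2, in both groups. The endothelial list spanned 0.68 to 3.29 and 0.96 to 4.12, and the Schwann list 1.97 to 3.21 and 1.23 to 1.51. These sums add different probes, so they do not compare the amounts of the cell types. Of 8 leukocyte markers, Itgam and Csf1r were tested and Ptprc, Adgre1 and Cd68 were not above the level needed. Day-adjusted counts higher and lower were 0 and 2 of 8 tested fibroblast markers, 0 and 1 of 4 endothelial, 0 and 0 of 2 leukocyte, 1 and 1 of 6 smooth muscle, 2 and 1 of 5 tenocyte and 1 and 0 of 3 Schwann cell markers, where 4.59% of all genes were higher and 5.59% lower. The part of any such cells in the differences above was not tested.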

How the data were processed

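The authors deposited 1 scanner file per array, which holds spot intensity. Per the file headers, Agilent Feature Extraction 10.7.3.1 produced it and subtracted the background. They also deposited a table of normalized log2 values (r of 0.992 to 0.993 with the same array's scanner values), whose normalization was not given in the sources used here. It served as an alternative.

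Control spots and outlier spots (176 to 365 on an array) gave no values. The log2 of the processed intensity was centred on the 75th percentile of its array. Between 52.0% and 56.7% of spots per array were well above background. Testing required a signal well above background on 3 or more of 6 arrays, and the brightest probe over all arrays stood for its gene. RefSeq (GRCm38.p6) supplied current names for 26300 of 55681 probes, matched by accession. limma 3.58.1 in R 4.3.3 compared the groups, with Benjamini-Hochberg adjustment over all genes and a threshold of 0.05. The number of arrays is one limit on the precision.

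In a test on simulated data with these arrays' spread, over 21837 genes, the fit without a batch term called 44% of genes changed by 3 log2 units and 4% of those changed by 2. The fit that also holds scan day called 94% and 78%. Genes given no change had a median estimate of 0.048 without a batch term and 0.00014 with scan day held. A scan-day effect was thus part of the simulated data, which favours the fit that holds it. These shares therefore cannot show which fit suits the real arrays, and they do not address a culture shared between untreated replicates.

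The members and lists were chosen with earlier results of these data known. All members are named. From the partner, activation and breakdown lists, genes passing without a batch term and those with the 8 smallest adjusted p in the day-adjusted fit are named, and others are said to be named after their values were seen. Genes known to respond to TGFb are named whatever their values, except 1 that is not reported here. The alternatives were other normalizations, filters, probe choices, blocks and left-out arrays.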

Additional observations from a re-analysis of the deposited data

How the results depend on the processing

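Over 26 alternatives, Ltbp2 kept its direction in all and passed the test in 20 (log2 difference 3.32 to 4.05, limma adjusted p from 0.000686 to 0.139). Fbn2 kept its direction in all and passed in 6, and Fbln5 kept its direction in all and passed in 3. Ltbp4 at its 3′ end probe turned sign with quantile normalization (-0.085), with the percentile over probes well above background on all arrays (-0.035), with median scaling (-0.021) and with normexp (-0.075), and ranged from -0.050 to 0.23 without single arrays. Emilin1 ranged from -0.79 to 0.41 without single arrays. Over all genes, counts called higher and lower were 54 and 47 with median scaling, 1558 and 1694 from the authors' deposited table, 1010 and 1229 with scan day as a term, and 361 and 408 with slide as a block. They were 0 and 0 with untreated replicates 1 and 2 averaged (1454 genes at an unadjusted p under 0.05), an alternative chosen after seeing the data like the next, and 307 and 342 with scan day as a term besides. Without single arrays they ranged from 0 to 1524 and from 0 to 1797, over fits without and with scan day as a term (147 to 1524 and 181 to 1797 with it). The members called higher were 2 with scan day as a term, 0 with those replicates averaged and 0 to 2 without single arrays. The members called lower were 1 with the authors' deposited table, with the mean of a gene's probes and with scan day as a term, and 0 to 1 without single arrays. The elastic fibre partners called were 3 with median scaling, 13 with the authors' deposited table, 13 with scan day as a term, 8 with slide as a block, 0 with the untreated replicates averaged and 0 to 14 without single arrays. The TGFb activation genes called were 0, 9, 8, 5 and 0 under these, 1 with no filter on dim probes, 4 with the replicates averaged and scan day as a term, and 0 to 8 without single arrays. The causes were not tested.

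With the replicate number as a block, 2 genes were called higher and 0 lower (2941 at an unadjusted p under 0.05). No member, partner or activation gene was called with this replicate block, each at 0, and Ltbp2 had a limma adjusted p of 0.0549. Same-numbered arrays correlated in their deviations from the group means at 0.80 for number 1, -0.71 for number 2 and 0.69 for number 3. Only the arrays of number 2 were scanned on different days. TGFb replicate 1 and untreated replicate 2, of different number but the same day, correlated at 0.85. The signs thus follow scan day, so these correlations cannot show whether the numbers pair the samples.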
